A study of Mus musculus with 6 samples.

Results

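The 10 genes described here encode receptors, a ligand and adhesion proteins known from blood vessels. They were chosen by symbol, with no measured value in the rule, but earlier results of these data were known at that time. Counts set beside those of all genes are therefore a description only. The list holds the ligand gene *Angpt1*, the receptor genes *Tek*, *Tie1*, *Kdr* and *Pdgfrb*, the adhesion genes *Pecam1*, *Esam*, *Emcn* and *Cdh5*, and *Pear1*. Of these, 9 were among the 12101 genes with values, all 9 passed the filter on low values, and *Cdh5* was not analysed here. RNA came from megakaryocyte-erythroid progenitors (MEPs), the bone marrow cells that give rise to red blood cells and platelet-forming megakaryocytes, sorted from adult mice whose exact age is not given. All 6 libraries came from *Nanog*-tg mice of the CD-1 strain that carried the R26-M2rtTA and Col1a1-tetO-*Nanog* alleles. In 3 libraries the mice had received doxycycline (dox) in their drinking water for 5 days, and in the other 3 they were untreated. The rtTA activator is expressed from the Rosa26 locus, so the transgene can be switched on in most tissues and not in blood cells alone. No mice without the transgene were among the groups, so an action of dox itself and an action of NANOG cannot be told apart. Whether each library came from its own mouse or from pooled mice is not stated, and p-values measure the spread between these samples.

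Angiopoietin 1, the product of *Angpt1*, is secreted by cells around vessels and by some blood cells, and it activates the receptor tyrosine kinase TEK (TIE2). The related receptor TIE1 has no well-established ligand of its own and acts in complexes with TEK, while KDR (VEGFR2) and PDGFRB receive VEGF and PDGF signals. PECAM1 (CD31), ESAM and VE-cadherin, encoded by *Cdh5*, join endothelial cells to each other. Several of these genes are shared between endothelium and blood: TEK marks haematopoietic stem cells, and PECAM1, ESAM and PEAR1 are found on platelets.

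Values are counts per 1000000 reads of a library (CPM), on which scale a single read counted for 0.0642 to 0.0910 CPM. The transgene served as the check of the groups: *Nanog* had 17062, 19609 and 15959 reads in the dox-treated libraries and 9, 13 and 1 in the untreated ones. Libraries held between 11264803 and 16153600 reads on the listed genes. Dox-treated replicate 3 stood apart from the other libraries. On the first principal component of all genes it lay at 14.8, where the other dox-treated replicates lay at 57.5 and 56.3 and the untreated ones between -54.2 and -35.1. Results are therefore given with and without this library.

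The mean of all 9 genes was higher with dox than without, and 4 of them, *Pecam1*, *Angpt1*, *Tek* and *Pdgfrb*, rose at an adjusted p under 0.05 (limma with Benjamini-Hochberg adjustment). Over all 12088 genes tested, 4.59% were called higher and 3.18% lower. None of the 9 was called lower, none was lower at an unadjusted p under 0.05 and none was called lower under any of 18 alternative settings. The count called higher was from 3 to 7 in 12 of those settings and 0 in the other 6, which were the fit with the replicate number as a block and the fits without any single library other than dox-treated replicate 3. At an unadjusted p under 0.05, 5 of the 9 were higher, and so were 15.6% of all genes tested, while 13.6% were lower. The median log2 fold change was 1.61 over the 9 genes and -0.03 over all genes tested. In 5 of the 9 every dox-treated library lay above every untreated one, which held for 17.7% of all genes tested. Since these are bulk samples, more cells of a type and more RNA per cell cannot be told apart.

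**Figure D1:**
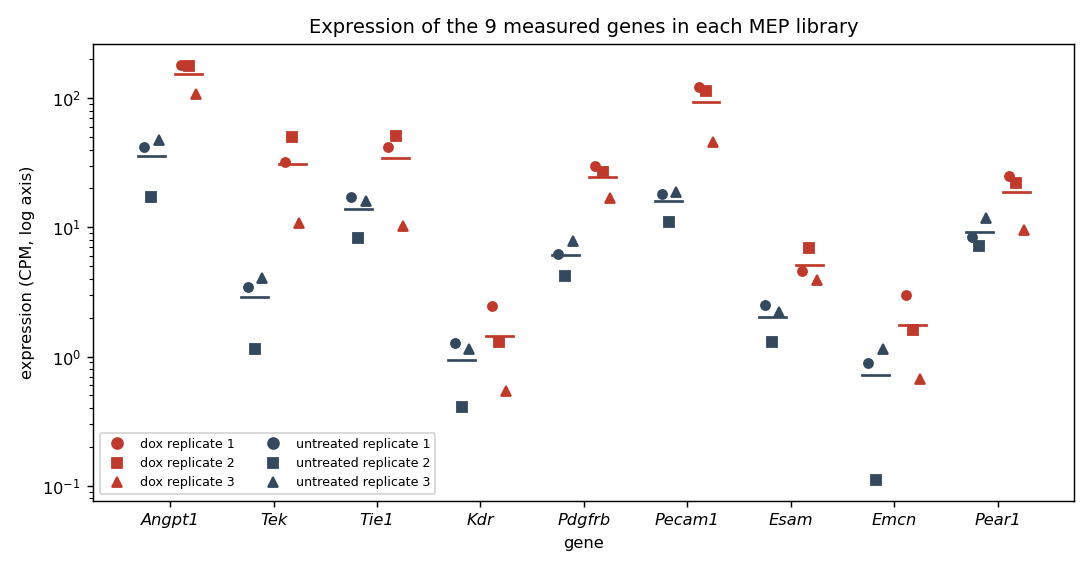
Expression of the 9 genes in each library (CPM, log axis), with points in red for the 3 dox-treated and in blue for the 3 untreated replicates and a line at each group mean. Dox-treated replicate 3, the red triangle, was the lowest dox-treated library for all 9 genes, and the groups overlapped for *Tie1*, *Kdr*, *Emcn* and *Pear1*.

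The plot of expression by library shows that the same libraries were lowest throughout. Dox-treated replicate 3 was the lowest of its group in 9 of 9 genes, which was true of 44.2% of all genes tested and of 67.9% of the genes called higher. Untreated replicate 2 was the lowest of its group in 9 of 9 genes, against 37.1% of all genes tested. Summed over the 9 genes, expression was 441.8, 448.7 and 206.5 CPM with dox and 99.7, 50.7 and 110.4 CPM without. The sum in dox-treated replicate 3 was thus less than that of the other treated libraries and more than that of any untreated one. This library was above every untreated library in 5 of the 9 genes taken singly, and in 35.3% of all genes tested.

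*Angpt1* (ENSMUSG00000022309), the ligand gene, lies on the minus strand of chr15:42256273-42508523 in NCBIM37, with 9 exons in its longest coding transcript. It was expressed at 181.2, 175.7 and 107.8 CPM in the dox-treated libraries and at 41.6, 17.2 and 47.5 CPM in the untreated ones. The lowest treated library was well above the highest untreated one. The treated mean was 154.9 ± 40.9 CPM (SD, n = 3) and the untreated mean 35.4 ± 16.1 CPM (SD, n = 3), giving a log2 fold change of 2.22 (SE 0.44, adjusted p = 0.040, limma). A two-sided exact permutation test gave p = 0.1, the smallest value that 3 libraries against 3 allow. In the annotation its exons share 283 bases with the antisense gene *Gm17473*, so reads there cannot be assigned with certainty.

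*Tek* (ENSMUSG00000006386), the receptor for this ligand, lies on the plus strand of chr4:94405980-94541667, with 23 exons. Its expression was 31.8, 50.3 and 10.9 CPM with dox and 3.46, 1.15 and 4.05 CPM without, from 15 to 44 reads in the untreated libraries. The groups did not overlap, although the treated libraries differed widely among themselves. *Tek* had the largest log2 fold change of the 9 genes, 3.36 (SE 0.72, 95% interval 1.60 to 5.12, adjusted p = 0.047, limma), and a mean 10.7 times that of the untreated libraries. The mean of dox-treated replicates 1 and 2 was 14.2 times the untreated mean, and the value of replicate 3 was 3.77 times it. *Tek* was also the member closest to the threshold: its adjusted p was 0.052 with a robust variance, 0.080 with voom precision weights and 0.054 with CPM of the total reads.

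*Tie1* (ENSMUSG00000033191), also on chromosome 4 but on the minus strand at chr4:118143796-118162666, has 23 exons. It stood at 42.2, 50.5 and 10.2 CPM with dox and at 17.1, 8.24 and 15.9 CPM without. Here the groups overlapped, because dox-treated replicate 3 lay below 2 of the untreated libraries. The log2 fold change was 1.09 (SE 0.66, 95% interval -0.53 to 2.71, adjusted p = 0.32, limma), and it did not pass the test. Without dox-treated replicate 3 the log2 fold change was 1.82 (SE 0.36, adjusted p = 0.027, limma), and without dox-treated replicate 2 it was 0.67 (adjusted p = 0.63, limma).

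The receptor pair was also compared per length, as CPM per kilobase of the longest coding transcript, a comparison chosen after the values were seen and given without a test. In the untreated libraries the level of *Tie1* was between 4.46 and 8.18 times that of *Tek*. In the dox-treated libraries it was between 1.07 and 1.51 times. The log2 ratio of *Tek* to *Tie1* was -2.49, -3.03 and -2.16 in the untreated replicates 1 to 3 and -0.59, -0.19 and -0.10 in the dox-treated ones. Dox-treated replicate 3, which stood apart in the level of both genes, lay with the other treated libraries in their ratio. The log2 ratio of the ligand gene *Angpt1* to *Tek*, on the same scale, was 3.72, 4.04 and 3.68 without dox and 2.64, 1.93 and 3.44 with dox. In that ratio dox-treated replicate 3 lay nearer to the untreated libraries than to the other treated ones.

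**Figure D2:**
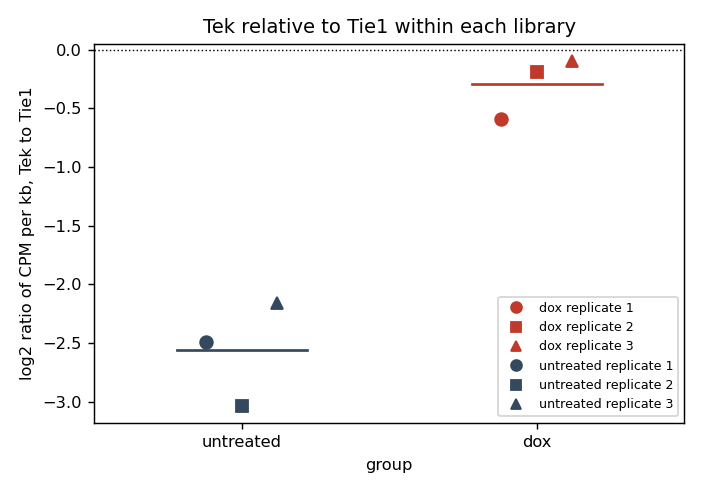
Log2 ratio of *Tek* to *Tie1* expression per kilobase in each library, with a point for each of the 3 dox-treated and 3 untreated replicates and a line at each group mean. The treated libraries lay between -0.59 and -0.10 and the untreated ones between -3.03 and -2.16.

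*Kdr* (ENSMUSG00000062960), the VEGF receptor gene on the minus strand of chr5:76328852-76374483 with 30 exons, was the least abundant of the 9 genes per length in both groups. It had 33, 17 and 8 reads with dox and 16, 5 and 12 reads without. The groups overlapped. The means were 1.44 ± 0.97 CPM (SD, n = 3) and 0.94 ± 0.47 CPM (SD, n = 3), and the log2 fold change was 0.52 (SE 0.68, 95% interval -1.14 to 2.18, adjusted p = 0.63, limma). Dox-treated replicate 3 lay below 2 of the untreated libraries, and the interval includes changes in both directions.

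*Tek* and *Kdr* are the receptor genes with the largest and the smallest fold change, and for this contrast the sequence before each start is shown. Both stretches are from RefSeq on GRCm38.p6, run from base -250 to base -21 counted from the start of the gene, and are read on the gene's own strand. Capitals mark the ETS core GGAA and the NANOG motif TAATGG where they occur on either strand. The stretch of *Tek* is on the plus strand at chr4:94739039-94739268, and that of *Kdr* on the minus strand at chr5:75978476-75978705.
Tek: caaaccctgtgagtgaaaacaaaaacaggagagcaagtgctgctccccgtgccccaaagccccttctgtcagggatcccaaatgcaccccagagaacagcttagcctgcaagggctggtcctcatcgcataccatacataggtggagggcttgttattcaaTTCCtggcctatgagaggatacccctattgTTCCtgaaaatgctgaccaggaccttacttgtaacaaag
Kdr: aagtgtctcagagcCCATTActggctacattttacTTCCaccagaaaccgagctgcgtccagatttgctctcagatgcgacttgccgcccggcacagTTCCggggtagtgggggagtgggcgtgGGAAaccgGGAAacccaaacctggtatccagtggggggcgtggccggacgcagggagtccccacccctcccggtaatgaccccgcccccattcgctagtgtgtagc

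Windows from 250 bases before to 50 bases after the start were given for 5 of the 10 genes, *Tek*, *Tie1*, *Kdr*, *Emcn* and *Pear1*. Both strands were searched. The ETS core occurred in 96.0% of 32851 windows of that length, with a median of 3 matches, and there were 2 matches in *Tek*, 9 in *Tie1*, 5 in *Kdr*, 6 in *Emcn* and 3 in *Pear1*. A GATA motif, AGATAA or TGATAA, occurred in 18.6% of the windows and was found once each in *Tek* and *Emcn*, at positions 37 and 11 after the start. The NANOG motif occurred in 7.73% of the windows and in that of *Kdr* alone among the 5, at position -236. A match is a run of letters and not a bound site, and a window without one says nothing of the factor.

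*Pdgfrb* (ENSMUSG00000024620), the PDGF receptor gene that marks pericytes and stromal cells, lies on the plus strand of chr18:61204804-61244715 with 24 exons. Its expression was 30.1, 26.8 and 16.9 CPM with dox and 6.26, 4.18 and 7.78 CPM without. The groups were well separated, and the spread within each was small beside the difference. The means were 24.6 ± 6.86 CPM (SD, n = 3) and 6.07 ± 1.81 CPM (SD, n = 3). The log2 fold change of 2.02 (SE 0.31, adjusted p = 0.023, limma) had the smallest adjusted p of the 9 genes.

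*Pecam1* (ENSMUSG00000020717), which encodes the adhesion protein CD31, lies on the minus strand of chr11:106515531-106611942 with 16 exons. It was expressed at 121.6, 113.5 and 46.0 CPM with dox and at 18.2, 10.97 and 18.8 CPM without. No treated library came near the untreated range. Its log2 fold change was 2.47 (SE 0.43, 95% interval 1.41 to 3.53, adjusted p = 0.031, limma). The mean of dox-treated replicates 1 and 2 was 7.36 times the untreated mean, and replicate 3 was 2.88 times it.

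*Esam* (ENSMUSG00000001946), an adhesion gene of endothelial junctions, platelets and stem cells, lies on the plus strand of chr9:37335663-37345904 with 7 exons. It had 62, 92 and 61 reads with dox and 32, 17 and 24 reads without. The groups did not overlap, but the gene missed the threshold. The log2 fold change was 1.37 (SE 0.32, 95% interval 0.57 to 2.16, adjusted p = 0.059, limma). Its adjusted p was under 0.05 in 5 of 17 alternatives, and without dox-treated replicate 3 it was 0.037.

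*Emcn* (ENSMUSG00000054690), on the plus strand of chr3:137004031-137095149 with 12 exons, encodes endomucin, a sialomucin of capillary and venous endothelium. It had 40, 21 and 10 reads with dox and 11, 1 and 12 reads without, and the groups overlapped. The single read in untreated replicate 2 has an exact 95% Poisson interval from 0.025 to 5.57 reads, which covers counting error only since PCR copies are not independent molecules. Its log2 fold change of 1.61 (SE 1.01, 95% interval -0.87 to 4.09, adjusted p = 0.33, limma) was 0.55 without untreated replicate 2.

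*Pear1* (ENSMUSG00000028073), a receptor gene involved in platelet contact, lies on the minus strand of chr3:87551812-87628181 with 25 exons. Its expression was 24.9, 22.1 and 9.53 CPM with dox and 8.44, 7.13 and 11.9 CPM without. Dox-treated replicate 3 lay inside the untreated range, and the other treated libraries lay above it. The log2 fold change was 0.96 (SE 0.41, 95% interval -0.04 to 1.95, adjusted p = 0.18, limma), and 1.39 (SE 0.24, adjusted p = 0.021) without dox-treated replicate 3. Its exons share 321 bases with *4933430H15Rik* on the same strand, so its reads are uncertain there.

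**Figure D3:**
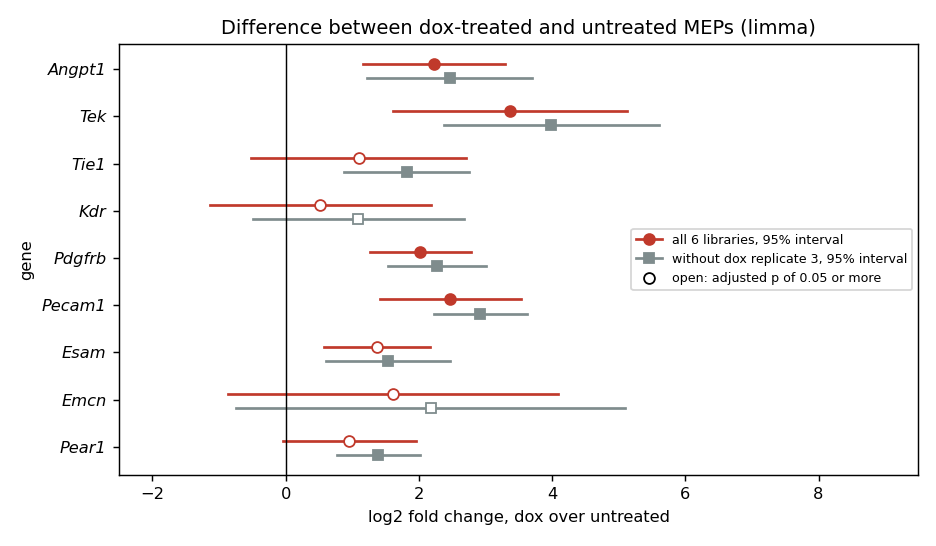
Log2 fold change of each gene (dox-treated over untreated) with its 95% interval from limma, with all 6 libraries in red and without dox-treated replicate 3 in grey, filled where the adjusted p is under 0.05. Filled points number 4 of 9 with all libraries and 7 of 9 without that replicate.

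Without dox-treated replicate 3, 7 of the 9 genes were called higher, where 14.9% of all genes tested were, and 0 were called lower by limma. *Esam*, *Tie1* and *Pear1* joined the 4 genes named above, and *Emcn* and *Kdr* did not pass. The plot of fold changes shows that each point moved to a higher value when this library was left out. Leaving out any other single library left 0 of the 9 called by limma, with a lowest adjusted p between 0.054 and 0.087. In each of these fits 5 of the 9 were higher at an unadjusted p under 0.05, where from 10.8% to 13.5% of all genes were. The share of all genes called higher was then 0.836% and 0.761% without dox-treated replicates 1 and 2, and 1.13%, 1.18% and 0.819% without untreated replicates 1, 2 and 3. The log2 fold changes below are from the fits without each library in turn, dox-treated replicate 3 included. They ran from 2.22 to 2.92 for *Pecam1*, from 1.76 to 2.50 for *Angpt1*, from 2.79 to 3.99 for *Tek* and from 1.78 to 2.27 for *Pdgfrb*.

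Per kilobase of the longest coding transcript, the level in untreated MEPs was highest for *Angpt1*, with a mean of 8.32 CPM per kilobase, and then *Pecam1*, with 4.64. *Tie1* (3.36), *Pear1* (2.04), *Pdgfrb* (1.12), *Esam* (1.08) and *Tek* (0.620) followed, and *Emcn* (0.276) and *Kdr* (0.159) had the lowest levels in CPM per kilobase. Among neighbours in this order the ranges over the libraries were separate for *Pear1* and *Pdgfrb* alone. In dox-treated MEPs the order began with *Angpt1* (36.4) and *Pecam1* (27.2) again, and went on with *Tie1* (8.38), *Tek* (6.66), *Pdgfrb* (4.54), *Pear1* (4.19) and *Esam* (2.76). *Emcn* (0.677) and *Kdr* (0.243) were again the lowest. Here *Pecam1* was separate from *Tie1*, and *Esam* from *Emcn*, and the other neighbours overlapped. *Tek* thus had rank 7 in untreated and rank 4 in dox-treated MEPs.

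Profiles over the 6 libraries, each centred on its own mean log2 value, were compared by root mean square distance. Among the 9 genes, *Angpt1* and *Pdgfrb* were the closest (0.24 on the log2 scale), followed by *Pecam1* and *Pdgfrb* (0.31) and *Pecam1* and *Angpt1* (0.32), and *Tek* and *Kdr* the farthest (1.498). The search covered 9987 other genes whose mean reached 5 CPM, and those nearest to *Angpt1* were *Rab37* (0.11), *Acvr1b* (0.16) and *Emid1* (0.17). *Emid1* (0.15) was also near to *Pdgfrb*, after *Ifitm1* (0.12) and *Lat* (0.13). *Pecam1* was nearest to *Ephb6* (0.09), *Prkca* (0.13) and *Ms4a6b* (0.15), and *Esam* to *H1f0* (0.12), *Cldn12* (0.13) and *Irak3* (0.15). *Tie1* lay near *Kif17* (0.16), *Appl2* (0.18) and *Meis1* (0.20), the last a stem cell transcription factor gene. *Pear1* lay near *Man2a2* (0.08), *Mllt6* (0.08) and *Gpsm1* (0.10). *Tek* had no gene as near: *F2rl2* (0.23), *Vdr* (0.24) and *Zfp521* (0.27) came first. The low-count genes were also farther from their neighbours, *Kdr* from *Atp2a3* (0.22), *Csf2rb* (0.23) and *Plxnd1* (0.28), and *Emcn* from *Trf* (0.35), *Gvin1* (0.50) and *Itih5* (0.58).

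Other genes of these pathways were read from a list written for this purpose. The 40 ligands, receptors and signalling genes of the angiopoietin, VEGF and PDGF pathways on it included 26 in the table. None of the 26 was called higher or lower by limma, and voom precision weights called 1 in each direction. At an unadjusted p under 0.05, 4 of the 26 were higher and 6 lower, beside 15.6% and 13.6% of all genes tested. The median log2 fold change was -0.01. The ligand and receptor genes *Angpt2*, *Angpt4*, *Vegfc*, *Pgf*, *Pdgfa*, *Flt1*, *Flt4*, *Pdgfra* and *Nrp2*, the TEK phosphatase gene *Ptprb* and 4 others were not analysed here. *Akt1*, which encodes a kinase downstream of these receptors, stood at 214.0 ± 12.4 CPM (SD, n = 3) in treated and 217.9 ± 30.2 CPM (SD, n = 3) in untreated libraries. *Ptpn11*, a phosphatase gene, stood at 167.4 ± 5.00 and 196.4 ± 13.03 CPM, a difference of -0.23 on the log2 scale (adjusted p = 0.20, limma). Without dox-treated replicate 3, 5 genes of the list were called higher, beside 14.9% of all genes tested. The 5 were *Grb2*, *Inpp5d*, *Plcg1*, *Foxo1* and *Rasa1*, chosen for naming after their values were seen.

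Among other junction and adhesion genes, 22 of 30 were in the table, 3 rose, 1 fell and 18 were not called, with a median log2 fold change of 0.31. *Ctnna1*, which encodes alpha-catenin and links cadherins to actin, rose from 149.2 ± 5.01 to 296.4 ± 33.1 CPM (SD, n = 3 each, log2 fold change 0.98, SE 0.12, adjusted p = 0.014, limma). *Icam2*, an adhesion gene of endothelium and platelets, rose by 0.82 on the log2 scale (adjusted p = 0.034), and *Selp*, the P-selectin gene, by 1.19 (adjusted p = 0.041). *Vcam1*, which encodes an adhesion protein of stroma, endothelium and marrow macrophages, went the other way. It fell from 31.0 ± 18.2 CPM (SD, n = 3) in untreated to 3.94 ± 1.30 CPM (SD, n = 3) in treated libraries (log2 fold change -2.85, adjusted p = 0.028, limma). *Ctnnb1* and *Cd47*, the most abundant genes not called, had log2 fold changes of -0.09 and 0.12. At an unadjusted p under 0.05 (limma), 11 of the 22 were higher and 1 lower, beside 15.6% and 13.6% of all genes tested. Without dox-treated replicate 3, 9 of the 22 were called higher, beside 14.9% of all genes tested, and 1 lower. Without any other single library, and with the replicate block, none of the 22 was called higher by limma, and the calls of *Ctnna1*, *Icam2* and *Selp* were lost. *Vcam1* was called lower without untreated replicate 2 but not in the other 5 of these fits.

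Markers of cell types that express these genes were read beside them. The gate for MEPs takes lineage-negative, c-kit-positive and Sca-1-negative cells by their CD34 and CD16/32, which selects against most mature vessel and stromal cells. Of 26 endothelial markers 8 were in the table, and defining ones such as *Flt1*, *Flt4*, *Cldn5*, *Sox17*, *Sox18*, *Nos3*, *Lyve1* and *Stab2* were not analysed here. Of the 8, 7 had a positive log2 fold change, and the median was 0.62. The summed endothelial level was 378.5, 385.5 and 268.9 CPM with dox and from 274.6 to 315.3 CPM without. In dox-treated replicate 3 the place of the sum rested on *Eng*, the most abundant marker: the other 7 summed to 253.0, 249.3 and 133.1 CPM with dox and from 91.2 to 128.5 CPM without, which put this library above the untreated ones. Of the 8, *Myct1* rose, at 27.4 ± 10.6 against 4.36 ± 2.22 CPM (SD, n = 3 each, log2 fold change 2.73, adjusted p = 0.037, limma), and none was called lower, with 3 higher and 1 lower at an unadjusted p under 0.05. *Vcam1*, an adhesion gene of endothelium among other cells, was not on this list and was called lower. *Eng*, the endoglin gene, differed by -0.40 on the log2 scale (adjusted p = 0.091), and *Cd93* by 0.80 (adjusted p = 0.42). Of 19 pericyte and stromal markers 3 were in the table, and *Cspg4*, *Rgs5*, *Acta2*, *Des*, *Notch3*, *Cxcl12*, *Lepr* and *Pdgfra* were among the 16 not analysed here. So were the other collagen genes of the list, *Col1a1* and *Col3a1*. *Col1a2*, a type I collagen gene, was at 95.8, 113.3 and 28.7 CPM with dox and 7.27, 3.95 and 7.51 CPM without (log2 fold change 3.50, adjusted p = 0.026, limma), *Vcam1* fell, and *Tagln* was at 1.45 and 1.201 CPM. The summed stromal level was from 32.6 to 120.6 CPM with dox and from 19.6 to 59.4 CPM without. Without any single library other than dox-treated replicate 3, and with the replicate block, neither *Myct1* nor *Col1a2* was called. The part of such cells in the members' levels was not tested.

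Stem cells and megakaryocytes are blood cells known to express several of the 9 genes, and their markers were read as well. The gate also selects against stem cells, which carry Sca-1. *Ly6a*, the gene of Sca-1, was not analysed here. Of 13 stem cell markers in the table, of 16 listed, 1 rose and 0 fell by limma, with 8 higher and 0 lower at an unadjusted p under 0.05. Without dox-treated replicate 3, where 14.9% of all genes tested were called higher, 8 of these markers were. Their median log2 fold change was 1.35, and their summed level was 481.1, 505.4 and 320.5 CPM with dox and from 150.7 to 225.7 CPM without. *Ctnnal1* was the gene called (log2 fold change 2.32, adjusted p = 0.034, limma), while *Mllt3* at 0.69 (adjusted p = 0.071) missed the threshold. Without any other single library, and with the replicate block, 0 of the stem cell markers were called by limma, and the count over all alternatives ran up to 9, with array quality weights. Of 16 megakaryocyte and platelet markers in the table, of 20 listed, 4 rose and 1 fell. The count higher was 7 without dox-treated replicate 3, beside 14.9% of all genes tested. It was 1 without untreated replicate 3, and 0 without any other single library or with the replicate block. *Gp9*, a platelet receptor subunit gene, rose by 1.28 on the log2 scale (adjusted p = 0.032) and *Rab27b* by 1.18 (adjusted p = 0.024), while *Vwf* fell by 1.31 on the log2 scale (adjusted p = 0.018). The fall of *Vwf* was not called without dox-treated replicate 2, untreated replicate 1 or untreated replicate 3, nor with the replicate block. *Itga2b*, which encodes CD41, differed by 2.52 on the log2 scale (adjusted p = 0.069), and *Gfi1b* by -0.51. The summed megakaryocyte level was 849.9, 790.1 and 469.4 CPM with dox and from 463.8 to 533.5 CPM without. Without *Gfi1b*, its most abundant uncalled gene, the sum was 716.2, 675.9 and 350.4 CPM with dox and from 257.1 to 350.8 CPM without. *Itga2b*, kept in both sums, was at 319.1, 314.1 and 66.9 CPM with dox and at 37.5, 24.1 and 39.3 CPM without. It thus held much of the rise in dox-treated replicates 1 and 2.

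The label of the cells was read from erythroid genes, all 15 of which were in the table. Their sum was 5316, 5123 and 9172 CPM with dox and from 7938 to 8466 CPM without, so the 2 treated libraries with the highest levels of the 9 genes had the lowest erythroid sums. *Car1* and *Car2*, carbonic anhydrase genes, held most of these sums. The other 13 summed to 2008, 2085 and 2799 CPM with dox and from 2996 to 3567 CPM without, so that dox-treated replicate 3 also lay below the untreated libraries. Of the 15, 1 fell, *Ermap* (log2 fold change -0.77, adjusted p = 0.024, limma), none was called higher (2 higher and 4 lower at an unadjusted p under 0.05), and 8 were called lower without dox-treated replicate 3. Without any other single library, and with the replicate block, the call of *Ermap* was lost and none of the 15 was called lower by limma. Without dox-treated replicate 1, 1 of the 15 was called higher, the beta-globin gene *Hbb-b1*, named after its values were seen and with near-identical copies that may share its reads. All 14 granulocyte and monocyte markers were in the table although the MEP gate selects against CD16/32, and 10 of them fell, with a sum from 541 to 809 CPM with dox and from 2439 to 5622 CPM without. The count lower was 2 without untreated replicate 3, 4 without either of dox-treated replicates 1 and 2, 6 without untreated replicate 1 and 3 with the replicate block, and 9 or 11 without the remaining libraries. *Elane*, a neutrophil protease gene, was at 59.5 and 560.0 CPM. Of 8 mast cell markers in the table, of 12 listed, 2 rose, *Cpa3* (log2 fold change 2.93, adjusted p = 0.0096, limma) and *Ms4a2* (2.76, adjusted p = 0.022), and 0 fell, with 4 higher and 0 lower at an unadjusted p under 0.05. *Cpa3* was called without each library in turn, *Ms4a2* only without dox-treated replicate 3, and neither with the replicate block. The mast cell sum was from 908 to 1074 CPM with dox and from 587 to 896 CPM without. How far the mix of cells within the gate moves with the 9 genes was not tested.

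**Figure D4:**
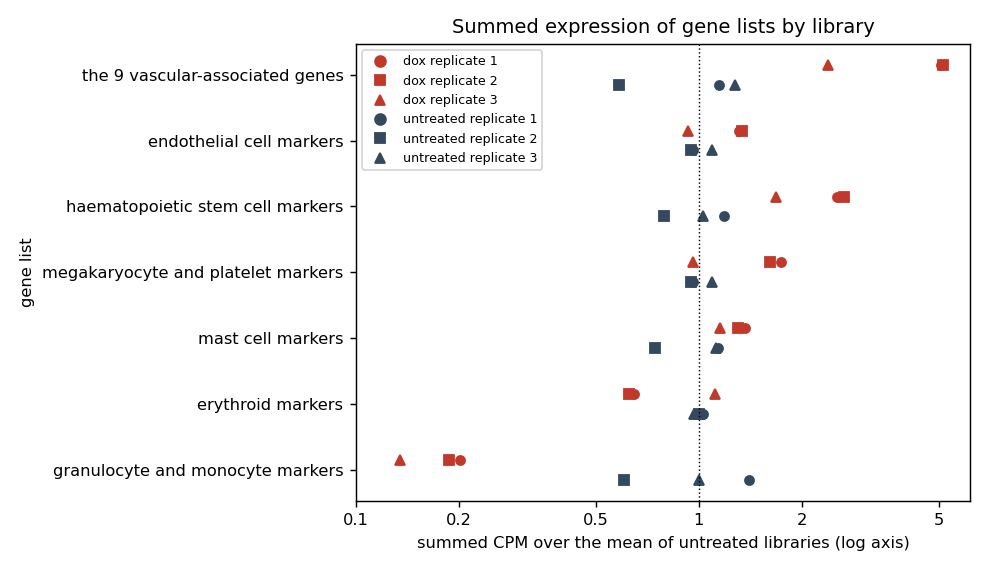
Summed expression of the 9 genes and of 6 marker lists in each library, relative to the mean of the untreated libraries (log axis), with a point for each of the 3 dox-treated and 3 untreated replicates. The sum over the 9 vascular genes was 5.08, 5.16 and 2.38 times the untreated mean in dox-treated replicates 1 to 3, and the endothelial sum 1.31, 1.33 and 0.93 times, or 2.22, 2.19 and 1.17 times without *Eng*.

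The plot of summed lists sets these levels side by side, and each sum is weighted by its most abundant genes. In dox-treated replicates 1 to 3 the sum of the 9 genes was 5.08, 5.16 and 2.38 times the untreated mean, and without *Angpt1* and *Pecam1* it was 3.91, 4.49 and 1.48 times. The stem cell list was at 2.52, 2.65 and 1.68 times, and without *Mllt3* at 3.37, 3.57 and 1.43 times. The megakaryocyte list was at 1.74, 1.61 and 0.96 times, and without *Gfi1b* at 2.28, 2.16 and 1.12 times. Both of these sums include *Itga2b*, which held much of the rise in dox-treated replicates 1 and 2. The erythroid list was at 0.65, 0.62 and 1.12 times, and without *Car1* and *Car2* at 0.62, 0.65 and 0.87 times. The sums without these genes were chosen after the values were seen, and differences between lists were not tested.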

How the data were processed

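RNA-seq was made from 6 libraries of sorted MEPs, 3 from dox-treated and 3 from untreated mice, with groups taken from the sample labels. The authors trimmed the reads with Cutadapt, quantified them against Ensembl transcripts of NCBIM37 with RSEM, and used limma for normalization. The deposited values are log2 CPM, scaled to normalized library sizes after adding 0.5 reads, which lowers the fold change of genes with few reads. The normalization method, how low genes were filtered and whether counting used strand are not given in the sources used here. Replicates were not pooled.

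CPM was taken as 2 to the power of the deposited value. All values returned whole reads within 0.01, and these gave depth and Poisson intervals. Differences were tested with limma 3.58.1 (R 4.3.3, lmFit and eBayes, no block) on the 12088 genes that reached 1 CPM in 3 or more libraries, with p-values adjusted over all of them (Benjamini-Hochberg) and a threshold of 0.05. The fit was also run on simulated counts, with no outlying library and no changes planted in the genes with fewest reads. That run does not cover the case of dox-treated replicate 3 or of low-count genes. Single genes also had two-sided exact permutation tests. Alternatives changed the filter, pseudocount, variance model, weights, scaling, replicate block and libraries. Gene positions and lengths came from an NCBIM37 annotation, which named 12067 of 12101 genes, and promoter sequences from RefSeq on GRCm38.p6. Python 3.11.15, pandas 2.3.3 and numpy 2.4.6 made the tables and matplotlib 3.10.9 the figures.

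Every member is given. From each other list, up to 4 called genes by smallest p and up to 2 others by highest mean are named, and for each member the 3 nearest profiles. The members and lists were chosen with earlier results of these data known.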

Additional observations from a re-analysis of the deposited data

How the results depend on the processing

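The direction of each of the 9 genes was kept in every alternative, except that the log2 fold change of *Kdr*, between -0.0026 and 1.09 when single libraries were omitted, was -0.0026 (adjusted p = 0.9986, limma) without untreated replicate 2. *Pecam1*, *Angpt1* and *Pdgfrb* had an adjusted p under 0.05 in 12 of 18 alternatives, *Tek* in 9 of 18, *Esam* in 5 of 17, *Tie1* and *Pear1* in 2 of 18 each, and *Emcn* and *Kdr* in 0 of 17. The numbers of genes called higher and lower were 909 and 747 with a mean-variance trend, and 2515 and 2601 with array quality weights, which gave dox-treated replicate 3 a weight of 0.163. Array weights called 7 of the 9 genes. For the pathway list the counts higher were 4 (trend), 7 (array weights), 1 (voom) and 1 (replicate block with voom), and the counts lower 1 (trend), 7 (array weights), 1 (voom) and 1 (quantile normalization). For the junction and adhesion list the counts higher were 6 (trend), 12 (array weights), 5 (quantile normalization) and 5 (replicate block with voom).

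Same-numbered libraries shared only a number: their deviations from the group means correlated at 0.018, -0.12 and -0.30 across genes. With the replicate block 53 genes were called higher and 29 lower, and none of the 9 genes was called (limma, 5 at an unadjusted p under 0.05, lowest adjusted p 0.093), nor any junction gene in either direction (0 and 0). With the block and voom weights 4 of the 9 were called.

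Leaving out each library in turn gave from 92 to 1801 genes higher and from 36 to 1687 lower, from 0 to 7 of the 9 higher, from 0 to 5 pathway genes higher and 0 lower, and from 0 to 9 junction genes higher and from 0 to 1 lower. It gave from 0 to 2 endothelial, from 0 to 1 stromal and from 1 to 4 mast cell markers higher, and from 0 to 8 erythroid markers lower, with the highest count in each without dox-treated replicate 3. With the replicate block these counts were 0. CPM of the total reads moved the median log2 fold change of all genes from -0.03 to 0.08, and that of the 9 from 1.61 to 1.72. The median of the 9 was 1.05 with a pseudocount of 1 CPM, 1.21 with quantile normalization and from 1.08 to 2.22 with single libraries omitted. Stem cell markers called higher numbered 3 with the filter at a mean of 5 CPM, the pseudocount of 1 CPM or quantile normalization, 2 with CPM of the total reads, 6 with a trend, 9 with array weights and 5 with the block and voom. *Emcn* and *Kdr* had at most 40 reads in a library, and counting error is largest for them among the 9. The causes of these differences were not tested.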
